A study of Homo sapiens with 24 samples.

Results

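The 38 genes described here encode heterogeneous nuclear ribonucleoproteins (hnRNPs), their relatives, and the RNA-binding proteins that set splicing programmes of particular tissues. They were taken as the rows of the count table whose Ensembl identifier maps to a fixed list of symbols, and all 38 of 38 were found among 60668 rows. Of these, 27 are hnRNP, poly(C)-binding (PCBP) or polypyrimidine tract-binding (PTB) genes and 11 are tissue-type regulators (ESRP, RBFOX, MBNL, CELF and the STAR proteins QKI, KHDRBS1 and KHDRBS3). Enough reads for a test were counted for 37 of them. CELF2, a regulator of brain and lymphocyte splicing, had between 0 and 5 counts in each of the 24 libraries and was not tested; 3 counts, the limit that a count of 0 allows, corresponded to 0.0219 CPM, the level scaled to library size that is used throughout, in the smallest library.

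The RNA came from MCF-10A, a non-transformed human mammary epithelial cell line, grown as 3D cultures on growth-factor-reduced Matrigel and collected on day 5. One line carried MYC-ER, a fusion of MYC to a ligand-binding part of the estrogen receptor that 4-hydroxytamoxifen (4-OHT) activates, and the other was the parental line without it. Cultures of both lines received 1 uM 4-OHT for 0, 8, 24 or 48 h before the common collection, so that the 0 h cultures had none, and 3 libraries were made for each of the 8 groups. The labels do not say what drives the fusion gene, whether the MYC-ER line is a single clone, or whether the 3 libraries of a group came from separate cultures, so the p-values below measure only the spread between these libraries, which may be technical. Comparing the lines asks what 4-OHT did where it could activate the fusion, set against what it did where it could not.

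Libraries held between 136860029 and 182438505 counts, and 23 of 24 had their nearest neighbour (Spearman) in their own group. The exception was replicate 2 of the parental 0 h group, which is taken up beside each result it touches. All 12 basal epithelial markers were tested, and their summed level ran from 18165 to 18680 CPM in untreated MYC-ER cultures, then 27775 to 30593, 14712 to 15416 and 13513 to 14216 CPM after 8, 24 and 48 h, against 26956 to 42643 CPM in parental libraries. KRT5 held the largest part, with means of 12528 CPM in MYC-ER and 13284 CPM in parental cultures at 0 h. Those of KRT14 were 626 and 9725 CPM. At 0 h 9 of the 12 were lower and 2 higher in MYC-ER (edgeR, adjusted p under 0.05), with a median log2 difference of -1.67 (all genes: 32.7% lower, 31.6% higher). Of the other cells, CDH5 and CD3E were at 0, PTPRC at 0 to 2 counts and VWF at 0 to 20, while PECAM1 had 8 to 335 counts and CD68 728 to 3536. The summed endothelial markers stayed between 0.058 and 2.32 CPM, and the summed immune markers, nearly all CD68, ran from 20.6 to 23.6 CPM in MYC-ER at 8 h and from 4.20 to 6.77 CPM at 48 h, against 6.46 to 20.8 CPM in parental libraries. The 6 fibroblast markers, of which COL1A2 and COL3A1 stayed at 0 to 9 counts, summed to between 370 and 377 CPM in MYC-ER at 0 h and to between 77.3 and 133 CPM in the other 7 groups; the part of these markers in the results below was not tested. Counts assigned to the MYC gene gave a mean of 387 ± 8.02 CPM (SD, n = 3) for untreated MYC-ER cultures, then 795 ± 1.77, 321 ± 8.84 and 248 ± 4.72 CPM after 8, 24 and 48 h, against group means between 463 and 532 CPM in parental cultures; the drug acts on the fusion protein, so the transcript level does not check the labels.

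Heterogeneous nuclear ribonucleoproteins coat nascent transcripts and, by binding near splice sites, often keep exons from being used, while also acting in RNA stability, export and translation. The tissue-type regulators bind short motifs and make exons more or less used according to where they sit: ESRP proteins maintain epithelial isoforms, RBFOX and MBNL proteins promote the isoforms of differentiated muscle and brain, and PTBP1 represses neuronal exons. MYC forms a dimer with MAX that binds the E-box CACGTG, and transcripts of HNRNPA1, HNRNPA2B1 and PTBP1 are known as MYC-responsive from work in other cells.

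The letters CACGTG, a palindrome read the same on both strands, were looked for in RefSeq promoter windows (GRCh38.p14) reaching from 250 bases before to 50 bases after each annotated start. Windows were matched for 32 of the 38 genes. ESRP1, ESRP2, HNRNPA1, KHDRBS3, RBFOX2 and QKI were not matched. The windows of HNRNPA2B1 and PTBP1, named above as MYC-responsive, did not hold the letters. The letters occurred in 10 of the 32 matched genes (31.2%), or 11 of their 63 windows (17.5%), and in 2396 of the 27305 genes of the whole table (8.77%), or 7.26% of its 35116 windows. The whole table includes genes that were not tested here. The listed genes also have more windows per gene, which can raise the share of genes with a copy. One copy from each of the 10 genes is shown because 8 of these transcripts rose in MYC-ER cultures at 8 h and the last 2, MBNL1 and HNRNPUL1, fell. Capitals mark the E-box letters within 30 bases of sequence.
SYNCRIP, chr6:85643851-85643880, minus strand: cgccccgggggaCACGTGcgcctgcagctt
HNRNPA3, chr2:177212711-177212740, plus strand: cggaaaacgcgtCACGTGacgactggcccc
HNRNPD, chr4:82374001-82374030, minus strand: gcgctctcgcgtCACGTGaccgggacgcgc
KHDRBS1, chr1:32013631-32013660, plus strand: ctagcgccgagtCACGTGgaaaacgaaacg
HNRNPM, chr19:8444921-8444950, plus strand: gttgcgtcgggtCACGTGggcgcgcaggcg
HNRNPDL, chr4:82430364-82430393, minus strand: agaggcccggggCACGTGcagaaaggagcc
HNRNPH2, chrX:101408168-101408197, plus strand: ccgagagttgctCACGTGaccgagatctca
HNRNPH3, chr10:68331631-68331660, plus strand: tgccggtcgaacCACGTGgggccctttccg
MBNL1, chr3:152298791-152298820, plus strand: tccttttttattCACGTGtcaggacagcag
HNRNPUL1, chr19:41262568-41262597, plus strand: aacctctgggccCACGTGagtgtctgtccc
The copy lay before the annotated start in 8 of these genes, by 211 bases for MBNL1 (a second start of that gene), 225 for KHDRBS1, 156 for HNRNPDL, 71 for HNRNPA3, 50 for HNRNPH3, 42 for HNRNPM and for HNRNPH2, and 27 for HNRNPD. In SYNCRIP and HNRNPUL1 it began at base 3 and base 24 of the transcript. Of the 10 genes with the letters, 8 rose and 2 fell at 8 h with a median log2 change of 0.92; of the 22 matched genes without them, 21 were tested, of which 12 rose and 6 fell, with a median of 0.32. Among all tested genes of the table, 42.3% of the 1566 with the letters were higher at 8 h and 35.6% lower, against 37.7% and 37.6% of the 11678 without them, with medians of 0.06 and -0.03. The split was not tested, the matched genes are few, and a match describes the letters of this window only and does not show that MYC bound there.

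In MYC-ER cultures most of these transcripts rose after 4-OHT, and fewer were still above the untreated level at 48 h. At 8 h against 0 h, 24 of the 37 tested genes rose and 9 fell (edgeR quasi-likelihood test, Benjamini-Hochberg adjusted p under 0.05), beside 32.2% of all 22158 tested genes called higher and 35.4% called lower. The median log2 change was 0.64 over the 37 genes and -0.10 over all genes. At 24 h 27 rose and 5 fell (all genes: 30.4% higher, 31.2% lower), with a median of 0.50 against -0.02. At 48 h 15 rose and 5 fell (all genes: 23.4% higher, 20.7% lower), with a median of 0.09 against 0.03. At least 2-fold changes past the threshold numbered 10, 10 and 1 of the 37 at the 3 times, and 34.7%, 27.5% and 13.4% of all tested genes met the same criterion, so large changes were no more frequent here than among genes at large. Of the 27 hnRNP, PCBP and PTB genes 20 rose and 5 fell at 8 h, and of the 10 tested tissue-type regulators 4 rose and 4 fell. These are bulk libraries, in which fewer cells of a type and less RNA per cell cannot be told apart. The count at 48 h depended on the fit: with only the groups compared, 31 genes were called (20 higher, 11 lower), and scaling by library size alone gave 25 higher and 0 lower. Of all tested genes, 59.9% and 44.1% were called in these fits, against 44.1% in the main fit.

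**Figure D1:**
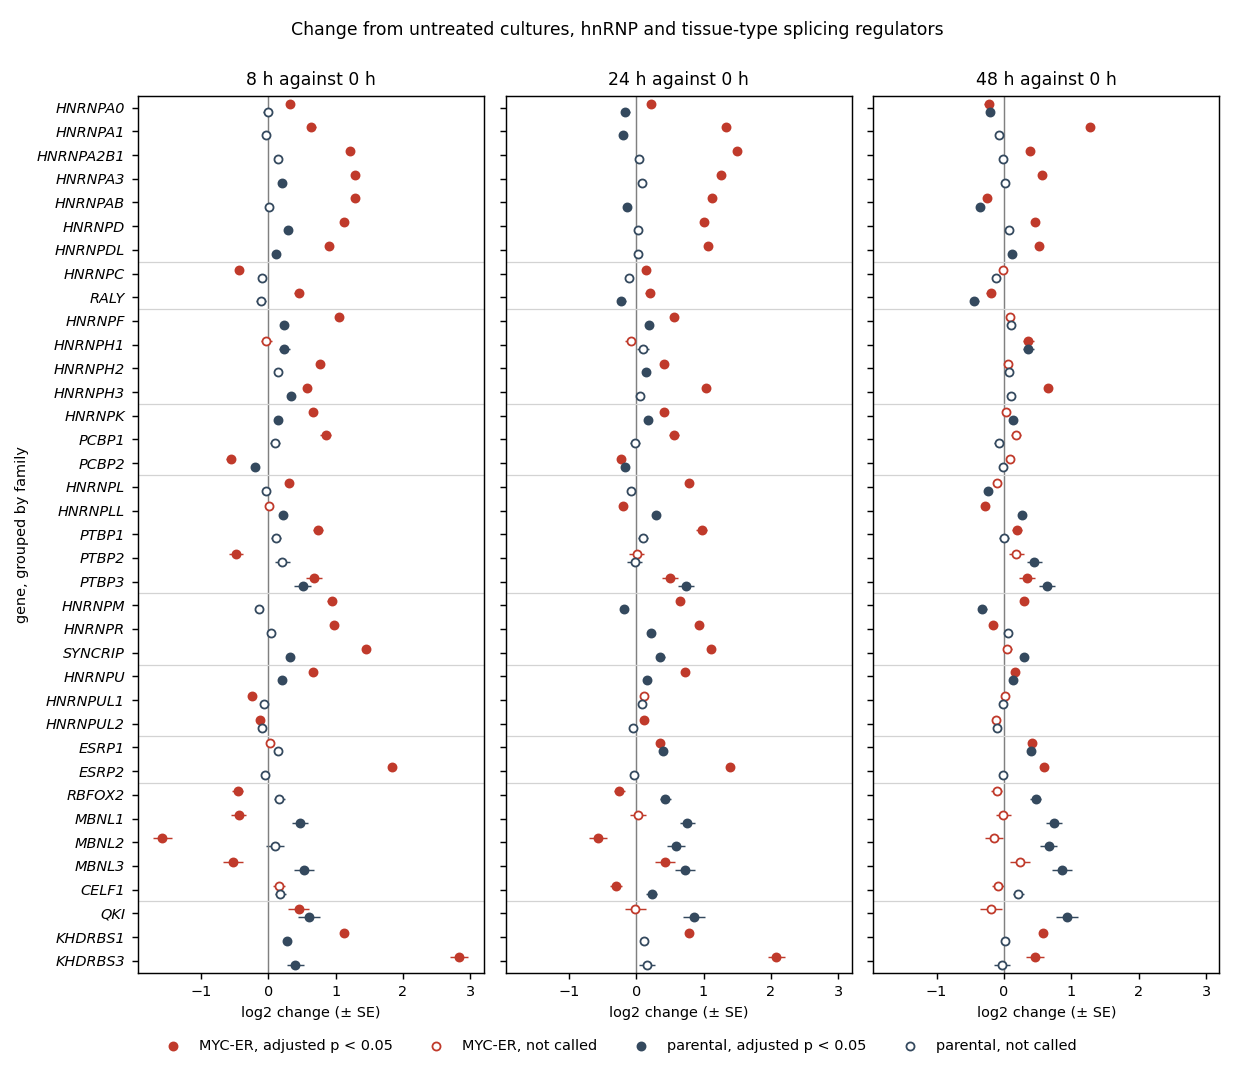
Fitted log2 change (horizontal axis, with SE bars) of each of the 37 tested genes at 8, 24 and 48 h of 4-OHT against 0 h, in MYC-ER (red) and parental (dark) cultures; filled points passed an adjusted p of 0.05. Red points lie mostly to the right of 0 at 8 and 24 h, led by KHDRBS3 at 2.83, while MBNL2 lies farthest left at -1.57.

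The A/B and D families, which bind UAG- and AU-rich RNA, rose in full at the first times: all 7 were higher at 8 h and all 7 at 24 h (5 higher and 2 lower at 48 h), with log2 changes between 0.32 and 1.29 and between 0.22 and 1.50. HNRNPA1, a repressor of many exons and per kilobase of exon the highest of the 38 in untreated parental cultures, was at 592, 682 and 641 CPM in the 3 MYC-ER libraries at 0 h. It was at 1003, 986 and 985 CPM at 8 h, at 1587, 1571 and 1641 CPM at 24 h, and at 1600, 1545 and 1510 CPM at 48 h. Each later group lay wholly above the 0 h libraries, and the 24 and 48 h libraries overlapped. The log2 changes from the untreated level were 0.64 (SE 0.061, adjusted p = 5.19e-09, edgeR), 1.33 and 1.28, and no other gene of the 38 was still at least 2-fold higher at 48 h. A further 76 rows carry names of HNRNPA1 pseudogenes or like copies and held 6.01% as many counts as HNRNPA1 itself, so reads of near-identical copies may have been split.

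HNRNPA2B1, which also binds N6-methyladenosine-bearing RNA and sorts RNAs for transport, followed a rise and fall. Its MYC-ER libraries stood at 394, 430 and 401 CPM at 0 h, 961, 967 and 909 at 8 h, 1152, 1139 and 1181 at 24 h, and 542, 532 and 524 at 48 h. No 2 time groups overlapped, and the 48 h level was 0.38 above 0 h on the log2 scale (adjusted p = 1.94e-05, edgeR). HNRNPA3, its close relative, rose from 161, 178 and 165 CPM to 413, 425 and 399 CPM at 8 h, held 400, 395 and 410 CPM at 24 h and was at 254, 248 and 249 CPM at 48 h. HNRNPAB, which binds AU-rich elements and has a part in mRNA localisation, rose from 153, 154 and 154 CPM to 386, 364 and 364 CPM at 8 h and ended at 135, 128 and 123 CPM. That last group lay below the untreated one (log2 change -0.26, adjusted p = 0.00035, edgeR), a call lost with library size alone (HNRNPAB -0.10, adjusted p = 0.0588). HNRNPD (AUF1, a regulator of AU-rich mRNA decay) changed by 1.12, 1.01 and 0.46 and its relative HNRNPDL by 0.90, 1.06 and 0.52 at the 3 times, all past the threshold. HNRNPA0, which binds AU-rich elements of stress and inflammatory mRNAs, moved least, by 0.32, 0.22 and -0.23, and its calls at 24 and 48 h were lost with the GC trend removed (adjusted p = 0.0619 and 0.11, edgeR).

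In the C family the members parted. HNRNPC, which binds uridine tracts and keeps cryptic exons silent, fell at 8 h from 658, 701 and 684 CPM to 516, 498 and 500 CPM (log2 change -0.43, SE 0.054, adjusted p = 3.47e-07, edgeR). It was at 754, 735 and 754 CPM at 24 h, above all untreated libraries, and at 675, 669 and 672 CPM at 48 h, within their range. RALY, its relative, rose by 0.45 at 8 h and 0.20 at 24 h and fell by 0.20 at 48 h against 0 h; both later calls were lost under other settings (with upper-quartile scaling 0.17, adjusted p = 0.0596, and -0.16, adjusted p = 0.103, edgeR), among them some that left out 1 MYC-ER library.

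The F/H family binds G-rich runs near splice and polyadenylation sites. HNRNPF rose at 8 h, from 213, 220 and 218 CPM to 452, 447 and 447 CPM, and was back to 234, 230 and 229 CPM at 48 h, where the log2 change of 0.09 did not pass the test. HNRNPH1, which binds G-rich runs in many alternative exons, had another timing: log2 changes of -0.03 and -0.08 at 8 and 24 h were not called, and at 48 h its libraries held 857, 853 and 904 CPM against 675, 695 and 667 CPM at 0 h (0.36, adjusted p = 0.00138, edgeR). In parental cultures HNRNPH1 rose by 0.36 at 48 h as well (adjusted p = 0.00147, edgeR), a call lost under some settings. The HNRNPH1 change did not differ between the lines past the threshold at any time (differences of -0.27, -0.18 and -0.0, SE 0.119). In MYC-ER, HNRNPH2, a near copy of HNRNPH1 on the X chromosome, rose by 0.77 and 0.41 at 8 and 24 h, and HNRNPH3, a shorter relative, by 0.58, 1.03 and 0.65 at the 3 times. A read-through transcript that joins RPL36A to HNRNPH2 held 1.27% as many counts as HNRNPH2.

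The KH-domain proteins bind C-rich RNA. HNRNPK, which also acts in transcription and translation, rose from 515, 556 and 523 CPM to 855, 832 and 839 CPM at 8 h and stood at 550, 543 and 536 CPM at 48 h. PCBP1 and PCBP2, which stabilise mRNAs and carry iron, moved in opposite directions. PCBP1 rose from 213, 205 and 212 CPM to 392, 368 and 379 CPM at 8 h (log2 change 0.85, SE 0.075, adjusted p = 1.35e-09, edgeR). PCBP2 fell from 604, 625 and 643 CPM to 424, 414 and 432 CPM (-0.56, SE 0.061, adjusted p = 4.52e-08). At 48 h neither differed from 0 h past the threshold (0.18 and 0.09). An antisense row over PCBP1 held 4.20% as many counts as PCBP1, and whether counting used strand is not given in the sources used here.

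Among the pyrimidine-tract binders, PTBP1, the repressor that holds back neuronal exons, rose from 250, 238 and 241 CPM to 400, 401 and 416 CPM at 8 h and 491, 476 and 457 CPM at 24 h. It was at 283, 280 and 267 CPM at 48 h, above every untreated library (log2 change 0.19, adjusted p = 0.043, edgeR), a call of PTBP1 lost on leaving out any of the 6 libraries. PTBP2, its neuronal counterpart, was low in these epithelial cells and fell at 8 h from 10.2, 11.3 and 10.7 CPM to 7.14, 8.29 and 7.64 CPM (-0.48, SE 0.11, adjusted p = 0.00059). PTBP3, first described in blood cells, rose by 0.68, 0.50 and 0.34 at the 3 times, the last call being lost on leaving out any of those 6 libraries. HNRNPL, a CA-repeat binder, peaked late, from 179, 175 and 179 CPM through 223, 213 and 227 CPM at 8 h to 311, 309 and 300 CPM at 24 h. Its relative HNRNPLL, known from T-cell CD45 splicing, changed by 0.01, -0.19 and -0.29, of which the last 2 passed the test but not with library size alone.

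HNRNPM, HNRNPR and SYNCRIP (hnRNP Q) all rose at 8 and 24 h. SYNCRIP, which acts in mRNA translation and stability, had the largest rise of the 27 hnRNP, PCBP and PTB genes at 8 h: 155, 170 and 159 CPM became 446, 449 and 431 CPM (log2 change 1.45, SE 0.064, adjusted p = 1.04e-14, edgeR). It was at 167, 171 and 166 CPM at 48 h, overlapping the untreated libraries. HNRNPM, a splicing regulator known for opposing ESRP proteins on mesenchymal isoforms, rose by 0.94, 0.65 and 0.30. HNRNPR changed by 0.97, 0.93 and -0.17, of which the last was lost with library size alone (-0.01, adjusted p = 0.899, edgeR), without MYC-ER 0 h replicate 2 and without MYC-ER 48 h replicate 3. In the U family, HNRNPU (a chromatin- and RNA-binding scaffold protein) rose by 0.66, 0.73 and 0.16, whereas its relative HNRNPUL1 fell by 0.24 at 8 h and HNRNPUL2 by 0.12, a call (adjusted p = 0.0493, edgeR) that was lost under other settings. A read-through row over HNRNPUL2 held 3.02% as many counts.

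**Figure D2:**
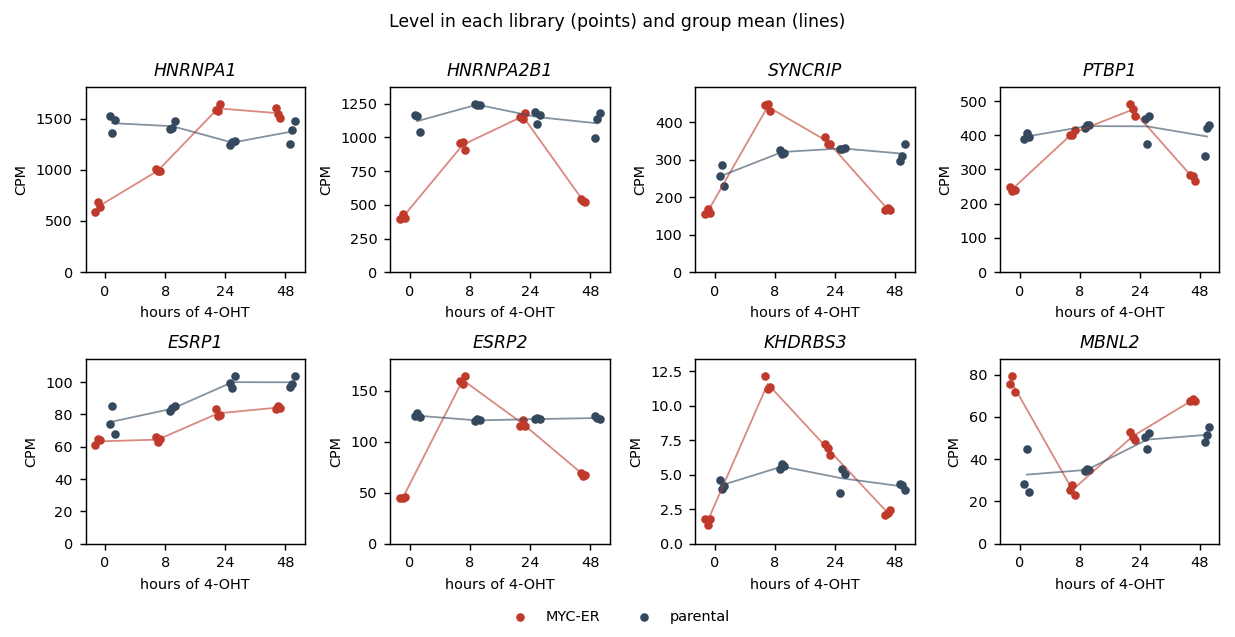
Level in CPM (vertical axis, from 0) of 8 genes in each library (points; lines join group means, n = 3) against hours of 4-OHT, MYC-ER in red and parental in dark. HNRNPA1 stays between 1510 and 1600 CPM at 48 h in MYC-ER while HNRNPA2B1, SYNCRIP, ESRP2 and KHDRBS3 come down, and MBNL2 dips to between 23.1 and 27.8 CPM at 8 h.

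ESRP1 and ESRP2 maintain epithelial splicing, and only ESRP2 passed the test at 8 h. ESRP2 went from 44.6, 44.4 and 45.7 CPM to 160, 157 and 165 CPM at 8 h, 116, 121 and 116 CPM at 24 h, and 69.8, 66.3 and 67.8 CPM at 48 h. No 2 of these groups overlapped, and the log2 changes from 0 h were 1.84 (SE 0.036, adjusted p = 2.89e-20, edgeR), 1.39 and 0.60. ESRP1 stood at 61.1, 64.5 and 64.2 CPM at 0 h and 65.7, 62.7 and 64.8 CPM at 8 h, which overlap (0.03, adjusted p = 0.709; -0.11 with upper-quartile scaling). It was then at 83.5, 78.7 and 79.7 CPM at 24 h and 83.6, 84.9 and 84.2 CPM at 48 h, rises of 0.35 and 0.41 that passed the test. In parental cultures ESRP1 rose by 0.40 at both 24 and 48 h as well, and the change did not differ between the lines past the threshold at any time (differences of -0.12, -0.05 and 0.01, SE 0.083).

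The RBFOX, MBNL and CELF genes went the other way at 8 h, when 4 of the 5 tested fell and none rose. MBNL2, a regulator of the adult brain isoforms lost in myotonic dystrophy, dropped from 75.4, 79.6 and 72.0 CPM to 25.5, 27.8 and 23.1 CPM (log2 change -1.57, SE 0.135, adjusted p = 9.55e-10, edgeR). It came back to 52.8, 50.3 and 49.3 CPM at 24 h and to 67.6, 68.7 and 67.8 CPM at 48 h, where -0.15 did not pass the test. MBNL1, the main muscleblind of most tissues, went from 114, 122 and 113 CPM to 84.3, 90.4 and 81.9 CPM at 8 h and was at 130, 114 and 113 CPM at 24 h. MBNL3 fell from 26.5, 30.2 and 25.1 CPM to 18.5, 20.4 and 18.1 CPM, then rose above the start to 40.5, 35.1 and 34.8 CPM at 24 h (0.43, adjusted p = 0.0161; 0.0673 without MYC-ER 0 h replicate 3 and 0.0744 without MYC-ER 24 h replicate 1). MBNL3 was also called higher at 24 h in parental cultures, a call lost under some settings. Its change at 24 h did not differ between the lines past the threshold (difference of -0.29). In MYC-ER, RBFOX2, which binds UGCAUG and is the RBFOX gene of epithelial cells, fell from 131, 136 and 128 CPM to 96.6, 96.9 and 96.4 CPM at 8 h. CELF1, which opposes muscleblind proteins on several exons, had a value of 0.16 at 8 h that was not called and fell by 0.30 at 24 h (adjusted p = 0.00366; 0.117 with library size alone).

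All 3 STAR proteins rose at 8 h in MYC-ER cultures. KHDRBS3 (SLM2, mostly known from brain and testis) had the largest change of the 38 genes, from a low level: 1.80, 1.33 and 1.76 CPM at 0 h, or between 234 and 310 counts, became 12.2, 11.2 and 11.4 CPM at 8 h. It was at 7.26, 6.98 and 6.45 CPM at 24 h and 2.07, 2.23 and 2.41 CPM at 48 h, with log2 changes of 2.83 (SE 0.133, adjusted p = 3.3e-14, edgeR), 2.08 and 0.46, the last with an adjusted p of 0.053 for KHDRBS3 without MYC-ER 0 h replicate 2. KHDRBS1 (SAM68, which links signalling to splicing) rose from 94.7, 97.7 and 95.3 CPM to 209, 209 and 206 CPM at 8 h and stayed 0.58 higher at 48 h. QKI, known for myelin and for circular RNAs in mesenchymal transition, rose from 98.9, 102 and 93.7 CPM to 132, 146 and 124 CPM at 8 h (0.45, adjusted p = 0.0177, edgeR), a call lost under some settings, and had values of -0.01 and -0.19 later that were not called. In parental cultures all 3 were also called higher at 8 h, by 0.28 to 0.60, each call being lost under some settings. The 8 h rises of KHDRBS1 and KHDRBS3 were larger in MYC-ER (differences of 0.84 and 2.43). That of QKI did not differ between the lines past the threshold (difference of -0.15).

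Ratios between related genes within a library do not depend on how libraries are scaled; they are ratios of counts, not per kilobase, so only their differences between groups can be read, and they were not tested. In MYC-ER the counts of PTBP1 were 22.6 times those of PTBP2 at 0 h, 52.8 times at 8 h, 44.0 times at 24 h and 22.7 times at 48 h. ESRP1 to ESRP2 went from 1.41 through 0.401 and 0.686 to 1.24, so that the gene with more counts changed from ESRP1 to ESRP2 and back. PCBP1 to PCBP2 went from 0.337 through 0.896 and 0.582 to 0.358. The ratio of MBNL1 to MBNL2 moved from 1.54 to 3.37, 2.34 and 1.69, and that of KHDRBS1 to KHDRBS3 from 59.5 to 18.0, 24.0 and 64.1. HNRNPL to HNRNPLL went from 6.0 through 7.39 and 11.8 to 6.82, HNRNPH1 to HNRNPH2 from 11.8 through 6.80 and 8.37 to 14.5, and PTBP1 to PTBP3 from 3.06 through 3.21 and 4.24 to 2.76. The 3 libraries at 8 h did not overlap the 3 at 0 h for any of these pairs except PTBP1 to PTBP3. In parental cultures the group values lay between 33.4 and 49.7 for PTBP1 to PTBP2, 0.599 and 0.815 for ESRP1 to ESRP2, 0.512 and 0.665 for PCBP1 to PCBP2, 2.09 and 2.69 for MBNL1 to MBNL2, and 33.1 and 36.9 for KHDRBS1 to KHDRBS3. They lay between 7.75 and 11.0 for HNRNPL to HNRNPLL, 6.75 and 8.44 for HNRNPH1 to HNRNPH2, and 2.94 and 4.74 for PTBP1 to PTBP3.

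**Figure D3:**
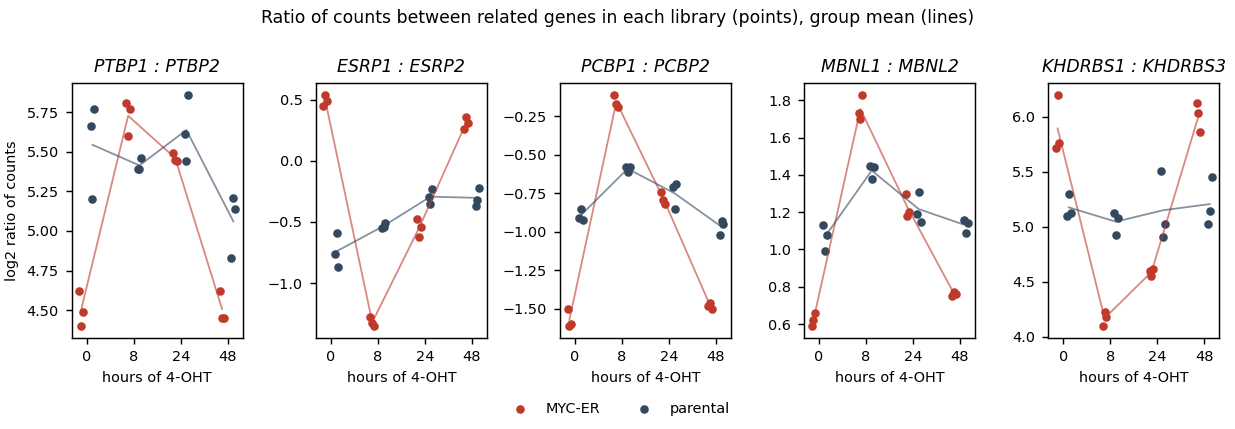
Log2 ratio of counts between 5 pairs of related genes (vertical axis, a separate scale in each panel) in each library (points; lines join group means) against hours of 4-OHT. In MYC-ER (red) each ratio leaves its starting value at 8 h and has returned near to it at 48 h, from -1.32 at 8 h to 0.31 at 48 h for ESRP1 to ESRP2.

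Between 8 and 24 h the MYC-ER changes went both ways. Of the 37 genes, 16 were higher and 15 lower at 24 h (all genes: 28.4% higher, 27.1% lower); with library size alone as the scale the split was 19 to 5, and with upper-quartile scaling 17 to 10. HNRNPA1 (0.69), HNRNPC (0.57), PTBP2 (0.49), MBNL3 (0.95) and MBNL2 (1.00) were among the higher, and KHDRBS3 (-0.75), HNRNPF (-0.49) and ESRP2 (-0.45) among the lower. From 24 to 48 h the direction was mostly down: 4 genes were higher and 23 lower (all genes: 28.2% higher, 25.5% lower), with a median of -0.36 against 0.06. The 4 higher genes were HNRNPH1, PCBP2, MBNL2 and CELF1, the call of CELF1 being lost under some settings. The largest falls were those of KHDRBS3 (-1.63), HNRNPAB (-1.37), HNRNPA2B1 (-1.12), HNRNPR (-1.11) and SYNCRIP (-1.06). HNRNPA1 did not pass the test over that interval (-0.04, adjusted p = 0.572, edgeR).

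Over the 3 times, 13 genes were above 0 h at each one: HNRNPA1, HNRNPA2B1, HNRNPA3, HNRNPD, HNRNPDL, HNRNPH3, HNRNPM, HNRNPU, PTBP1, PTBP3, ESRP2, KHDRBS1 and KHDRBS3. Another 6 were higher at 8 and 24 h and not called at 48 h (HNRNPF, HNRNPH2, HNRNPK, HNRNPL, PCBP1 and SYNCRIP), and 4 were higher at the first times and lower at the last (HNRNPA0, HNRNPAB, HNRNPR and RALY), although with library size alone none of these 4 was called lower at 48 h. The 48 h calls of PTBP1, PTBP3 and KHDRBS3 were also lost under some settings. MBNL2, PCBP2 and RBFOX2 were lower at 8 and 24 h, RBFOX2 at 24 h not with library size alone. Of all tested genes, 32.2%, 30.4% and 23.4% were called higher at the single times. The share of all genes with each pattern was not counted, so the patterns only sort the listed genes. Together the 38 genes took 0.76% of all counts in untreated MYC-ER cultures, then 1.02%, 1.26% and 1.04% after 8, 24 and 48 h. In parental cultures the share lay between 1.03% and 1.11%.

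The lines differed before any 4-OHT. At 0 h, 24 of the 37 genes had a lower level in the MYC-ER line and 10 a higher one (all genes: 31.6% higher, 32.7% lower), with a median log2 difference of -0.36 against 0.00. ESRP2 was at 44.9 ± 0.694 CPM (SD, n = 3) in MYC-ER and 125 ± 2.09 in parental cultures, a difference of -1.48 (adjusted p = 4.82e-19, edgeR). HNRNPA2B1 differed by -1.46, KHDRBS3 by -1.38, HNRNPAB by -1.36, HNRNPA1 by -1.19, HNRNPA3 by -1.17 and PTBP1 by -0.71. Higher in MYC-ER were MBNL2 (1.21), QKI (0.79), MBNL1 (0.78), RBFOX2 (0.70), HNRNPH1 (0.41), PCBP2 (0.37) and MBNL3 (0.37) among others. The MBNL3 call was lost under some settings, and its libraries overlapped (25.1 to 30.2 CPM in MYC-ER, 15.4 to 29.5 CPM in parental cultures). Without replicate 2 of the parental 0 h group the counts were again 24 lower and 10 higher. Set against the range of all 12 parental libraries, the MYC-ER group at 0 h lay wholly below it for 23 of the 37 tested genes and wholly above it for 4 (all tested genes: 24.0% below, 23.5% above). At 8 h 7 lay below and 13 above (16.4% and 16.0%), at 24 h 0 below and 6 above (16.9% and 16.0%), and at 48 h 19 below and 4 above (22.4% and 24.1%). The 6 above at 24 h were HNRNPA1, HNRNPD, HNRNPDL, HNRNPU, PCBP1 and KHDRBS3. What else differs between the lines and the presence of the fusion cannot be told apart in this comparison. HNRNPA2B1, for one, reached 1152, 1139 and 1181 CPM at 24 h in MYC-ER, within the 995 to 1248 CPM of the 12 parental libraries.

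Parental cultures also changed after 4-OHT. At 8 h 16 genes were higher and 1 lower (all genes: 15.0% higher, 16.0% lower), at 24 h 15 and 6 (21.2% and 21.7%), and at 48 h 14 and 5 (20.4% and 20.1%); none of the 37 reached a 2-fold change, which 2.18%, 3.98% and 2.62% of all tested genes did. The larger values were those of tissue-type regulators and PTBP3. QKI was at 50.5, 82.3 and 37.2 CPM in the parental 0 h libraries, at 87.0, 86.5 and 84.9 CPM at 8 h, at 105, 96.5 and 106 CPM at 24 h, and at 113, 100 and 113 CPM at 48 h. Its log2 changes were 0.60, 0.86 and 0.94. The 0 h libraries were spread widely, with replicate 2 above the other two, and the same held for MBNL1 (62.1, 89.1 and 52.2 CPM), MBNL2 (28.5, 44.9 and 24.7 CPM), MBNL3 (18.3, 29.5 and 15.4 CPM), PTBP3 (76.6, 114 and 67.0 CPM) and RBFOX2 (76.2, 96.6 and 70.6 CPM). MBNL1 rose by 0.47, 0.76 and 0.74, MBNL3 by 0.53, 0.72 and 0.86, and PTBP3 by 0.51, 0.74 and 0.64. ESRP2, by contrast, was between 120 and 128 CPM in all 12 parental libraries, and no parental time differed from 0 h past the threshold (-0.05, -0.03 and -0.02). With the GC trend removed, however, rises of ESRP2 at 24 and 48 h passed it.

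The parental counts rested on the fit and on that library. With only the groups compared, 2, 6 and 8 genes were called at the 3 times, with the spread taken from the 6 libraries of each comparison. The share of all tested genes called fell as well, to 7.41%, 25.1% and 16.6% from 31.0%, 42.9% and 40.5%. Without replicate 2 of the parental 0 h group, 27 genes were called at 8 h (22 higher, 5 lower), 25 at 24 h and 24 at 48 h. Of all tested genes, 40.2%, 46.9% and 45.1% were then called. Parental changes also moved with the GC content of the gene, with a Spearman correlation over the 37 genes of -0.48, -0.49 and -0.57 at the 3 times (over 21724 genes -0.37, -0.42 and -0.42; these points share libraries), against 0.15, 0.13 and 0.04 in MYC-ER. With the GC trend removed the splits of higher to lower genes became 10 to 5, 9 to 12 and 11 to 15 at the successive times. With upper-quartile scaling they were 13 to 4, 10 to 10 and 11 to 7.

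**Figure D4:**
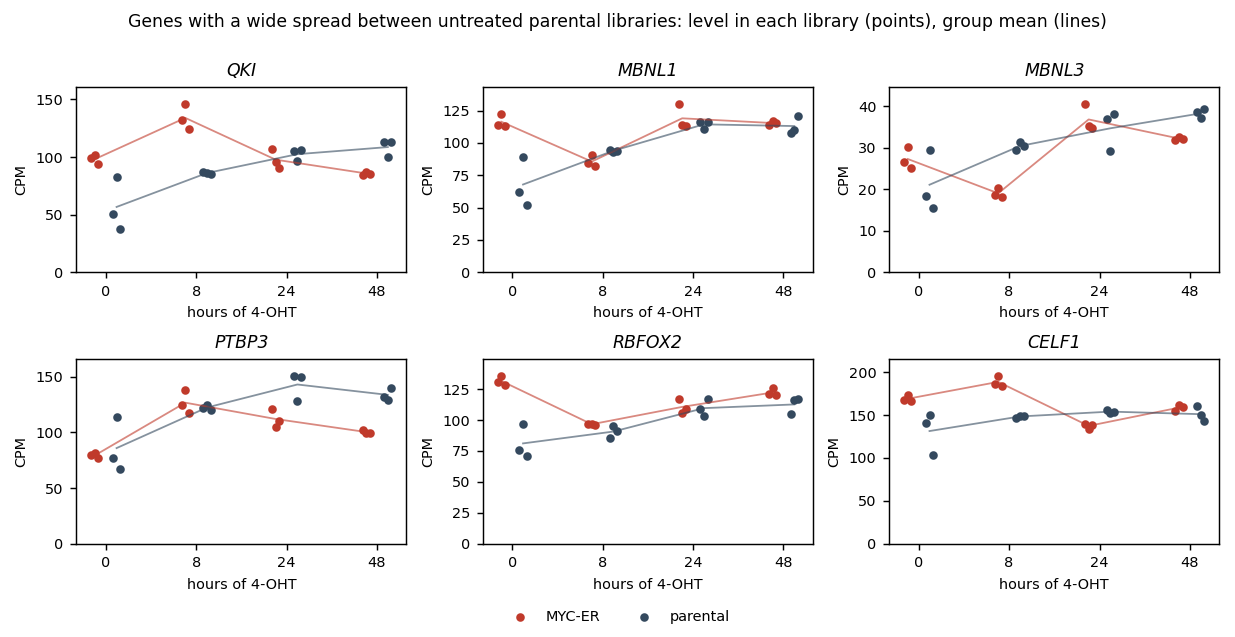
Level in CPM (vertical axis, from 0) of QKI, MBNL1, MBNL3, PTBP3, RBFOX2 and CELF1 in each library (points; lines join group means, n = 3) against hours of 4-OHT, MYC-ER in red and parental in dark. The 3 parental libraries at 0 h are spread, from 37.2 to 82.3 CPM for QKI, and those at 8 h lie close together, from 84.9 to 87.0 CPM.

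The difference of the 4-OHT response between the lines was tested directly, by taking the parental log2 change away from that of MYC-ER. At 8 h 22 genes had a more positive and 9 a more negative change in MYC-ER (all genes: 27.3% higher, 27.8% lower). At 24 h the counts were 23 and 6 (27.7% and 26.8%), and at 48 h 10 and 9 (23.6% and 21.4%); the split at 48 h became 17 to 5 with library size alone, 15 to 6 with upper-quartile scaling and 18 to 4 with the GC trend removed. All 7 A/B and D genes were on the positive side at 8 and 24 h, and HNRNPA1 kept a difference of 1.36 at 48 h (SE 0.086, adjusted p = 4.09e-11, edgeR). KHDRBS3 differed by 2.43 at 8 h, ESRP2 by 1.89 and HNRNPAB by 1.27. On the negative side at 8 h were MBNL2 (-1.67), MBNL3 (-1.05), MBNL1 (-0.91), PTBP2 (-0.69), RBFOX2 (-0.61), PCBP2 (-0.36), HNRNPC (-0.33), HNRNPLL (-0.21) and HNRNPUL1 (-0.18), the last 2 being lost under other settings. MBNL1, MBNL2, RBFOX2 and QKI were negative at 48 h, between -0.58 and -1.13, where their parental changes were rises and their MYC-ER changes were not called. Leaving out replicate 2 of the parental 0 h group gave 34, 34 and 23 calls at the 3 times in place of 31, 29 and 19. The share of all tested genes called was then 57.0%, 56.2% and 48.6% in place of 55.2%, 54.5% and 45.0%. The rise of PTBP3 did not differ between the lines past the threshold at any time (0.16, -0.24 and -0.30, SE 0.171).

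For comparison, 51 other splicing RNA-binding proteins outside the SR and core spliceosome genes were listed and 43 of them tested. In MYC-ER 24 were higher and 13 lower at 8 h with a median of 0.35 (all genes: 32.2% higher, 35.4% lower). The counts were 19 and 14 at 24 h with a median of 0.11 (30.4% and 31.2%). They were 15 and 9 at 48 h with a median of 0.02 (23.4% and 20.7%). Among the largest rises at 8 h were those of RBM38 (2.12), a p53-responsive regulator of mRNA stability and splicing, and of the RNA helicase DHX9 (1.48), and the largest falls were those of MSI2 (-1.51), RBM5 (-0.92) and the cold-inducible CIRBP (-0.90). In parental cultures 8 were higher and 5 lower at 8 h (all genes: 15.0% higher, 16.0% lower), 10 and 8 at 24 h (21.2% and 21.7%), and 13 and 11 at 48 h (20.4% and 20.1%). At 0 h 14 were higher and 23 lower in MYC-ER than in parental cultures, with a median of -0.31 (all genes: 31.6% higher, 32.7% lower).

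Levels between genes were compared per kilobase of exon (GENCODE 29) in untreated parental cultures. HNRNPA1 was highest at 286 ± 16.2 CPM per kilobase (SD, n = 3), followed by HNRNPAB at 184 ± 11.6, PCBP1 at 149 ± 15.1, HNRNPK at 133 ± 6.86 and HNRNPA2B1 at 121 ± 7.81. The intervals of 1 SD overlapped between PCBP1 and HNRNPK and between HNRNPK and HNRNPA2B1, but not between PCBP1 and HNRNPA2B1. The tested tissue-type regulators ranged from 0.491 ± 0.038 for KHDRBS3 through 1.73 ± 0.608 for MBNL3 and 3.26 ± 1.34 for QKI to 15.5 ± 1.82 for ESRP1, 22.5 ± 0.375 for ESRP2 and 42.7 ± 1.42 for KHDRBS1, and PTBP2 stood at 0.669 ± 0.162 against 57.6 ± 1.32 for PTBP1.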

How the data were processed

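Poly(A)-selected RNA of 24 libraries was sequenced as 150-base paired reads, per the labels' protocols. The submitters' processing notes name Trimmomatic 0.39, STAR, StringTie 2.1.3b and GRCh38. The authors deposited one table of whole numbers per gene, taken here as estimated counts because StringTie is the only quantifier named; the annotation, the handling of multiply mapped reads and the use of strand are not given in the sources used here. Symbols were matched for 60295 of 60668 rows (GENCODE 29, RefSeq).

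Counts were scaled by TMM (edgeR 4.0.16, R 4.3.3), filtered with filterByExpr (22158 genes) and fitted as 8 group means from the 24 libraries at once; the 12 comparisons used edgeR's quasi-likelihood test with Benjamini-Hochberg adjustment over all tested genes, threshold 0.05. Fold changes are log2, CPM uses effective library sizes, and SD is over 3 libraries. The procedure was run on simulated data with 200 changed genes in MYC-ER at 8 h. Far more genes were called in the real data, so the simulation does not check the scaling there. DESeq2 1.42.0, other scalings and filters, a GC correction and leaving out each library were alternatives. Same-numbered libraries did not deviate together (84 pairs, correlation -0.312 to 0.368, median 0.00258; 168 differently numbered pairs, median 0.00921), so no block was used. The genes and lists were chosen with earlier results of these data known. All 38 genes could be named; of the other splicing proteins, at most the 3 largest rises and falls past the threshold with at least 10 CPM in a contrast; only those of MYC-ER at 8 h are given, and 1 of these is not reported here.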

Additional observations from a re-analysis of the deposited data

Results flagged for a closer look

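The 4-OHT response differed between the lines, in a test of the difference itself (edgeR interaction, adjusted p under 0.05), for the genes below. Each value is the MYC-ER log2 change minus the parental log2 change, with n = 3 libraries in each of the groups.

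At 8 h the difference was positive for KHDRBS3 2.43, ESRP2 1.89, HNRNPAB 1.27, SYNCRIP 1.14, HNRNPM 1.09, HNRNPA3 1.09, HNRNPA2B1 1.06, HNRNPR 0.92, HNRNPD 0.84, KHDRBS1 0.84, HNRNPF 0.81, HNRNPDL 0.79, PCBP1 0.75, HNRNPA1 0.66, PTBP1 0.63, HNRNPH2 0.62, RALY 0.56, HNRNPK 0.52, HNRNPU 0.45, HNRNPL 0.35, HNRNPA0 0.34 and HNRNPH3 0.24. It was negative for MBNL2 -1.67, MBNL3 -1.05, MBNL1 -0.91, PTBP2 -0.69, RBFOX2 -0.61, PCBP2 -0.36, HNRNPC -0.33, HNRNPLL -0.21 and HNRNPUL1 -0.18.

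At 24 h the difference was positive for KHDRBS3 1.92, HNRNPA1 1.53, HNRNPA2B1 1.46, ESRP2 1.42, HNRNPAB 1.26, HNRNPA3 1.17, HNRNPDL 1.04, HNRNPD 0.98, HNRNPH3 0.97, HNRNPL 0.87, PTBP1 0.86, HNRNPM 0.83, SYNCRIP 0.75, HNRNPR 0.71, KHDRBS1 0.68, PCBP1 0.59, HNRNPU 0.57, RALY 0.43, HNRNPA0 0.38, HNRNPF 0.36, HNRNPH2 0.27, HNRNPC 0.23 and HNRNPK 0.23. It was negative for MBNL2 -1.17, QKI -0.86, MBNL1 -0.72, RBFOX2 -0.69, CELF1 -0.53 and HNRNPLL -0.49.

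At 48 h the difference was positive for HNRNPA1 1.36, ESRP2 0.62, HNRNPM 0.62, KHDRBS1 0.57, HNRNPA3 0.56, HNRNPH3 0.55, KHDRBS3 0.49, HNRNPA2B1 0.40, HNRNPDL 0.39 and HNRNPD 0.39. It was negative for QKI -1.13, MBNL2 -0.81, MBNL1 -0.75, MBNL3 -0.62, RBFOX2 -0.58, HNRNPLL -0.55, CELF1 -0.30, SYNCRIP -0.24 and HNRNPR -0.24.

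HNRNPA1, HNRNPA2B1, HNRNPA3, HNRNPD, HNRNPDL, HNRNPH3, HNRNPM, ESRP2, KHDRBS1 and KHDRBS3 were positive at all 3 times, and MBNL1, MBNL2, RBFOX2 and HNRNPLL negative at all 3. The HNRNPLL calls were lost at each time with the GC trend removed, and that of KHDRBS3 at 48 h under several settings. Those of HNRNPH3 and HNRNPUL1 at 8 h, and of CELF1 and MBNL3 at 48 h, did not hold in every alternative either. HNRNPC was negative at 8 h and positive at 24 h. HNRNPR and SYNCRIP were positive at the first times and negative at 48 h, where both calls were lost with library size alone and turned sign with the GC trend removed. All these differences share the 0 h libraries of both lines, of which parental replicate 2 stood apart. Whether the lines' unequal starting levels bear on these differences was not tested.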

How the results depend on the processing

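The libraries of each group number 3, so a single library weighs on every spread. Of the 33, 32 and 20 genes called in MYC-ER at 8, 24 and 48 h, 31, 24 and 12 kept their direction and call in every alternative run; of the 17, 21 and 19 called in parental cultures, 2, 5 and 8 did. For the lines at 0 h it was 29 of 34, and for the difference between the lines 28 of 31, 28 of 29 and 13 of 19. Over all single-gene values, 8 of 2775 alternatives reversed a MYC-ER change, 29 of 1665 a parental change, 2 of 555 a difference at 0 h and 6 of 2331 an interaction. A turn of sign counted as a reversal only where the main or the alternative value passed the threshold. Other turns of sign were not counted. The causes were not tested.

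With only the groups compared, the number called became 31 in MYC-ER at 48 h (from 20), and 2, 6 and 8 in parental cultures (from 17, 21 and 19). The share of all tested genes called moved the same way. It became 59.9% (from 44.1%) in MYC-ER, and 7.41%, 25.1% and 16.6% (from 31.0%, 42.9% and 40.5%) in parental cultures. Leaving out 1 library gave between 13 and 27 calls in parental cultures at 8 h (all genes: 20.7% to 40.2%), 27 without parental 0 h replicate 2. It gave a log2 change of PTBP2 in parental cultures at 24 h between -0.11 and 0.20 (from -0.02). Scaling by library size alone moved the median of all genes at 24 h against 8 h in MYC-ER from 0.05 to 0.26, and at 48 h against 0 h from 0.03 to 0.19. The fit with a replicate block called 32, 31 and 19 genes in MYC-ER and 17, 20 and 20 in parental cultures.

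The turns of sign given next are only those where the main or the alternative value passed the threshold. With library size alone the sign turned for HNRNPC 0.14 (MYC-ER 48 h against 0 h), for HNRNPA3 0.17, HNRNPAB 0.05, HNRNPD 0.09, HNRNPLL 0.01 and HNRNPR 0.17 (MYC-ER 24 h against 8 h). With upper-quartile scaling it turned for HNRNPLL -0.13 and ESRP1 -0.11 (MYC-ER 8 h against 0 h). With the GC trend removed it turned for HNRNPDL -0.04, HNRNPK -0.04, HNRNPLL -0.03, HNRNPR -0.11 and HNRNPU -0.03 (parental 8 h against 0 h), for HNRNPA2B1 -0.31, HNRNPA3 -0.17, HNRNPDL -0.23, HNRNPH2 -0.13, HNRNPH3 -0.18, HNRNPK -0.12, HNRNPLL -0.08, HNRNPR -0.02, HNRNPU -0.20, RALY 0.02 and ESRP2 0.17 (parental 24 h against 0 h), for HNRNPA3 -0.22, HNRNPDL -0.10, HNRNPH2 -0.18, HNRNPH3 -0.12, HNRNPK -0.14, HNRNPLL -0.11, HNRNPR -0.16, HNRNPU -0.21, HNRNPUL1 0.17, SYNCRIP -0.02, PTBP1 0.25 and ESRP2 0.19 (parental 48 h against 0 h), for HNRNPLL -0.04 and HNRNPUL1 0.16 (MYC-ER against parental at 0 h), for ESRP1 0.17 (interaction at 24 h), for HNRNPA0 0.36, HNRNPH2 0.30, HNRNPK 0.24, HNRNPR 0.05 and SYNCRIP 0.14 (interaction at 48 h).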
